A study of Mus musculus with 8 samples.

Results

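Integrins are paired alpha and beta receptors in the cell membrane that tie cells to matrix and to other cells, and laminins are heterotrimers of an alpha, a beta and a gamma chain that form the sheet of basement membrane under an epithelium. Gut epithelium holds on to laminin mainly through Itga6 with Itgb4, which sit in hemidesmosomes, and through Itga3 with Itgb1. Leukocytes carry another set, in which Itgb2 pairs with Itgal, Itgam or Itgax and Itgb7 pairs with Itga4 or Itgae, and these serve adhesion to vessel walls and homing to the gut.

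The members were all probes whose gene name on the array begins with the symbol of an integrin alpha or beta chain, or of a laminin chain, with the genes Itgb1bp and Itgb3bp left out. The pattern took 91 probes and 7 of them belonged to the genes left out, so that 84 probes of 39 genes remained, out of 41174 probes of 27597 genes. Of the 84 probes, 73 passed the filter on dim probes (log2 level of at least 5.59 on at least 4 arrays) and 11 did not, and the brightest of a gene's passing probes stood for it. The alpha chain Itga10 had no probe past the filter: its log2 levels were 3.75, 4.64, 3.64 and 5.06 in the tumors and 4.17, 4.94, 4.24 and 6.12 in the normals. Of the 38 genes tested, 25 were integrin chains and 11 were laminin chains. The pattern also took Itgbl1, an integrin-like protein without a chain's role, and Itgb4bp, an older symbol of Eif6, a ribosome factor once named for binding Itgb4.

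RNA of adult C57BL/6 mouse colon was measured on 8 one-colour arrays, 1 per sample. The 4 tumors are labelled colon adenoma and come from mice heterozygous for both Tcf4 and Apc, and the 4 normal colons come from mice that were heterozygous for Apc and wild type for Tcf4. The labels' protocol gives littermates that carry the Apc allele Min, a truncation after which mice grow intestinal adenomas, and the distal 2.5 cm of colon. Tissue and Tcf4 genotype cannot be told apart in any comparison here, every mouse carried the Apc allele, and no age is given beyond adult. In bulk tissue, fewer cells of a type and less RNA per cell cannot be told apart either.

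Values are log2 levels from the authors' table and differences are tumor minus normal. Normal 3 stood apart from its group: its correlation over the genes tested was 0.947 to 0.966 with the tumors and 0.872 to 0.941 with the other normals. Of the table's 8 columns 4 could be traced to a scanner file, in 1 case (tumor 1) to that deposited for the same sample, so every value rests on the labels of the table. The table was used with the sample names of its columns, and no sample was moved. The mean level of 6 small intestine markers was 11.96 in normal 3 and 8.74 to 10.82 in the other 7 samples. Apoa1 (12.30), Fabp6 (13.33) and Sis (12.32) were highest of all samples in normal 3. The others were not: Apoa4 was highest in tumor 1 (10.59, normal 3 at 10.37), Lct in tumor 1 (9.71, normal 3 at 7.32) and Reg3g in tumor 3 (16.50, normal 3 at 16.13). All 5 colon markers had a difference below 0 (median -1.43) and lay above the detection limit in the 8 samples. Of these, 3 had every tumor below every normal and 2 were called lower, against 11.9% and 7.54% of all genes.

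Across all 21637 genes tested, 14.5% were called at an adjusted p under 0.05 (limma), 7.00% higher and 7.54% lower in the tumors. Among the 38 member genes 4 were called, which is 10.5% and no more than that background. Itgb2, Itgav and Lama5 were higher and Itga7 was lower in the tumors. With the scanner files taken as filed in place of the table, 0 members and 0 genes in all were called, with 3 members and 411 genes at an unadjusted p under 0.05 (limma). The median difference of the members was 0.25, against 0.15 for all genes, with 28 members above 0 and 10 below. Of all genes 12529 lay above 0 and 9108 below. Both groups were fully separated in 7 of 38 members, 5 with the tumors above and 2 with the tumors below, while 23.8% of all genes were separated, 11.9% in each direction.

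**Figure D1:**
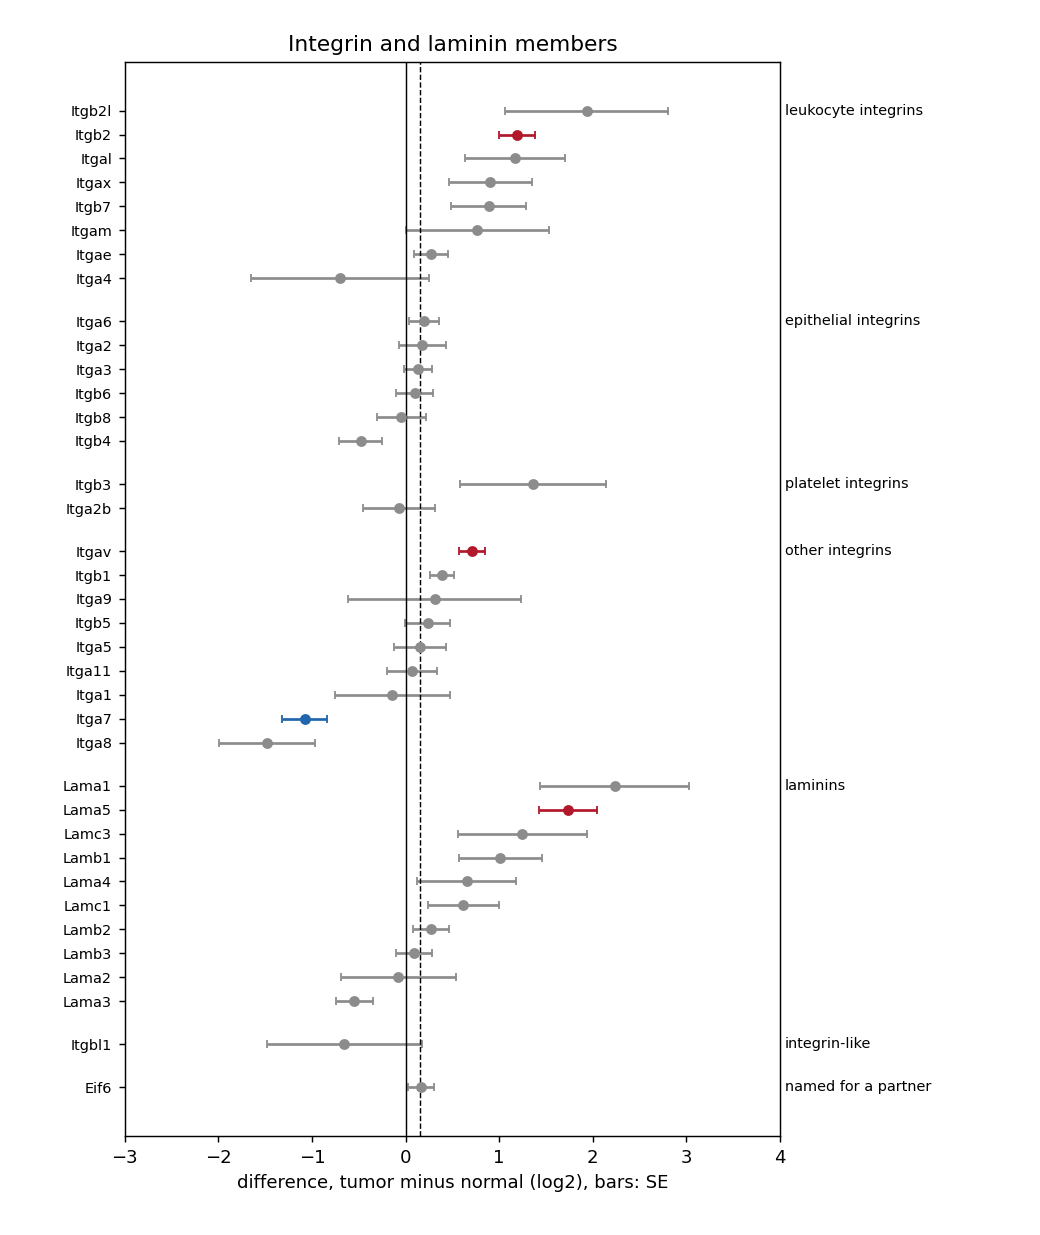
Difference in log2 level, tumor minus normal, for 37 of the member genes tested, grouped by class from top to bottom, with bars for the standard error (4 tumors and 4 normals). Red marks genes called higher (Itgb2, Itgav, Lama5), blue the gene called lower (Itga7) and grey the rest, the dashed line is the median of all genes (0.15).

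Lama5 encodes the alpha chain that is the usual one of mature gut basement membrane, and it had the largest difference of the 4 called members. Its log2 level was 13.35, 13.82, 13.21 and 13.40 in tumors 1 to 4, against 11.24, 11.61, 12.59 and 11.41 in normals 1 to 4. All tumors lay above all normals, and normal 3 lay closest to them. The means were 13.45 ± 0.26 in tumors and 11.71 ± 0.60 in normals (SD, n = 4 each), a difference of 1.73 ± 0.31 (SE) or 3.33-fold, with an adjusted p of 0.0196. The call held without tumor 4 or normal 3 (without normal 3 the difference was 2.03, adjusted p = 0.00104) and was lost without any of the other 6 samples in turn, with adjusted p values between 0.05002 and 0.0642. The difference of Lama5 was 0.21 with the scanner files as filed. Its probe lies at chr2:180105781-180105795 of mm8, as the array files give it.

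Itgb2 encodes the beta chain shared by the leukocyte receptors. Its log2 level was 11.24, 11.02, 11.46 and 10.90 in tumors, against 9.92, 10.24, 10.12 and 9.59 in normals. The lowest tumor was above the highest normal, and normal 3 lay within the range of the other normals. Means were 11.16 ± 0.25 in tumors and 9.97 ± 0.28 in normals (SD, n = 4 each), and the difference of 1.19 ± 0.20 (SE), 2.28-fold, had an adjusted p of 0.0171. Matched by replicate number, the 4 differences were 1.32, 0.78, 1.35 and 1.31. The call was lost without tumor 2, tumor 3, normal 1 or normal 4, with adjusted p values from 0.0509 to 0.0635, and the difference stayed between 1.06 and 1.28 over all 8 fits that left out a sample. The difference was 0.55 with the scanner files as filed. The only probe of Itgb2 that was kept lies at chr10:77008949-77009008 (mm8).

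Itgav encodes the alpha chain of receptors for vitronectin, osteopontin and latent TGF-beta. Its levels were 12.05, 12.14, 11.96 and 12.10 in tumors, against 11.08, 11.46, 11.51 and 11.37 in normals, with no overlap. The means of 12.06 ± 0.08 in tumors and 11.36 ± 0.19 in normals (SD, n = 4 each) differed by 0.71 ± 0.14 (SE), 1.63-fold, at an adjusted p of 0.0219. That value comes from the brightest probe (chr2:83606815-83606874, mm8), and the other kept probes disagreed with each other, with differences of 1.24 (adjusted p = 0.279) and -1.02 (adjusted p = 0.401). Both were far dimmer, with means of 7.24 in tumors and 6.00 in normals for the first. The second had means of 5.30 and 6.32, near the detection limit of 5.59, which 1 tumor and 3 normals reached. The mean over the gene's probes differed by 0.31 (adjusted p = 0.645), and with the replicate number as a block the adjusted p of the brightest probe was 0.0525. With the scanner files as filed the difference was -0.012. Leaving out a single sample other than tumor 4 or normal 3 also ended the call, with adjusted p values from 0.0557 to 0.0682, and without normal 3 it was 0.00875.

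Itga7 encodes the laminin-binding alpha chain of muscle. Its levels were 9.84, 9.58, 9.36 and 10.46 in tumors, against 10.97, 10.98, 10.75 and 10.86 in normals. Tumor 4 came closest to the normals, which were close together. Means were 9.81 ± 0.47 in tumors and 10.89 ± 0.11 in normals (SD, n = 4 each), a difference of -1.08 ± 0.24 (SE), 2.11-fold lower, with an adjusted p of 0.0287. The second kept probe showed the same direction, with a difference of -1.93 (adjusted p = 0.0206 over all probes). With the replicate number as a block the adjusted p was 0.0524, and without any single sample other than tumor 4 or normal 3 it lay between 0.0718 and 0.0850, while without normal 3 it was 0.0165. The difference was -0.93 with the scanner files as filed. The brightest probe lies at chr10:128360883-128360941 (mm8).

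Markers of smooth muscle, a tissue that expresses Itga7, differed between samples as well. Their mean log2 level was 14.96, 14.49, 14.90 and 15.72 in tumors and 15.16, 16.55, 14.11 and 16.43 in normals. All 5 smooth muscle markers were lower on average in the tumors and 0 of 5 were called. Normal 3 had the lowest muscle marker level of all samples and the lowest Itga7 level of the normals, 10.75, which was above every tumor. Tumor 4 had the highest level of the tumors for both, 15.72 and 10.46. The part of smooth muscle in the difference of Itga7 was not tested.

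**Figure D2:**
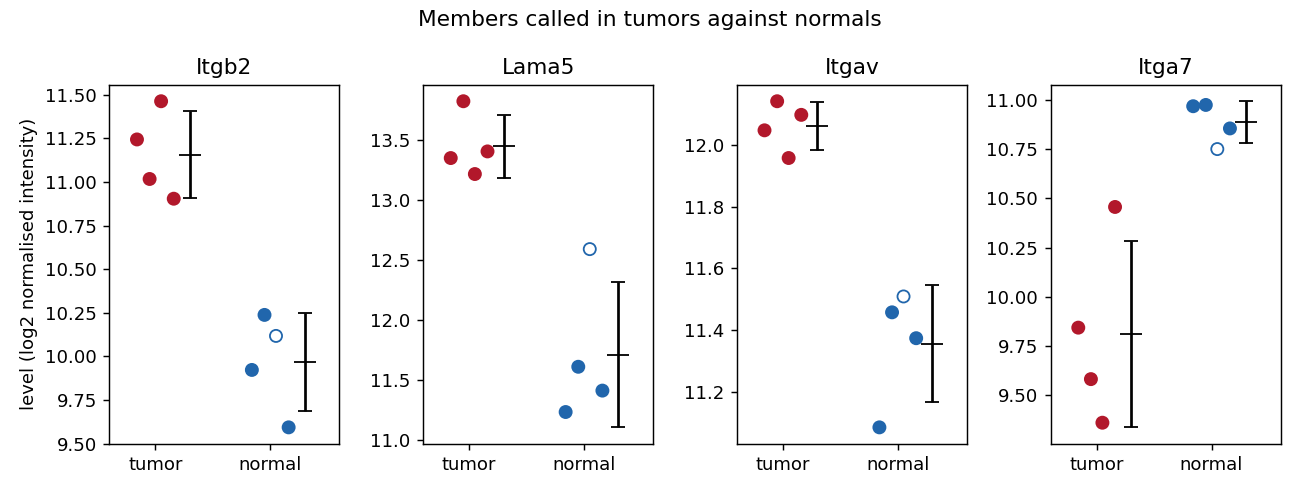
Log2 normalised level of the 4 called members in each of 4 tumors (red, left) and 4 normals (blue, right), with a bar for the mean and SD beside each group, each panel having its own axis. The open circle is normal 3, which lies at 12.59 for Lama5, and in every panel the groups do not overlap.

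Of the members, 24 genes have an entry in the RefSeq promoter table (build GRCm38.p6), with 27 start sites in all. The 250 bases before the start are shown for both called members that have an entry, Lama5 and Itgav, and for Itgam, an alpha partner of Itgb2. The window of Itgb7 was also searched for the motifs below and held 0 matches, so it is not shown. Lama5 lies on the minus strand at chr2:180225860-180226109, Itgav on the plus strand at chr2:83724147-83724396 and Itgam on the plus strand at chr7:128062390-128062639. Sequences run 5′ to 3′ and end at the base before the start site. Capitals mark each match to GAGGAA, a form of the ETS site read by PU.1, or to its reverse complement TTCCTC.
Lama5 upstream: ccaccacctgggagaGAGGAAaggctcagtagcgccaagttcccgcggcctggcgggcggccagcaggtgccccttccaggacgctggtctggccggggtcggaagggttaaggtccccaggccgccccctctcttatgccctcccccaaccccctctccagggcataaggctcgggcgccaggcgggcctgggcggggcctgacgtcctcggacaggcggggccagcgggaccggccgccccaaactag
Itgav upstream: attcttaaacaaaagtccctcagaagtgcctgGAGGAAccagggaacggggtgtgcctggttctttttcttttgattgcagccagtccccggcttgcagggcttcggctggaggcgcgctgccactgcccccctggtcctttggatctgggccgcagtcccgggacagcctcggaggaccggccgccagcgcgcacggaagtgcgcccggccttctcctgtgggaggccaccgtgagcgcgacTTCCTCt
Itgam upstream: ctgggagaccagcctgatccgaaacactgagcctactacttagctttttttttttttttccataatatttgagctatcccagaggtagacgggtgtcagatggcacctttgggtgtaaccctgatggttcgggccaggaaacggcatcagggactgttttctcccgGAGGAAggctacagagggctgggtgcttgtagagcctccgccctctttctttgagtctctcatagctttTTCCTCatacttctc
The match lies 235 bases before the start in Lama5, at 218 and 7 bases in Itgav, and at 84 and 15 bases in Itgam. On both strands of the same window, GAGGAA was found in 14 of 27 member start sites (51.9%) and in 23.3% of all 32851 start sites of the table. CTTTGAT, the core read by TCF/LEF factors, was in 0 of 27 member windows and in 3.21% of all. TGANTCA, the AP-1 core, was in 1 of 27, that of Itgax, and in 6.75% of all. These are matches of letters.

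Among the 8 leukocyte integrins 1 was called higher (Itgb2), 0 lower and 7 were not called. That is 12.5% called, against 14.5% of all genes. Their median difference was 0.90, against 0.15 for all genes, and 7 of 8 lay above 0. The mean level over the brightest probes of the 8 genes was 9.48, 9.53, 9.58 and 9.19 in tumors, against 8.79, 9.26, 7.58 and 8.95 in normals. Normal 3 was lowest on these probes. The alpha partners of Itgb2 were measured one by one. Itgal, the alpha chain of LFA-1 on lymphocytes, was at 10.08, 10.08, 9.91 and 9.73 in tumors and 9.15, 9.74, 7.07 and 9.17 in normals, a difference of 1.17 ± 0.53 (SE, adjusted p = 0.172). All tumors but tumor 4 lay above the highest normal. Itgam, the alpha chain of Mac-1 on neutrophils and macrophages, was at 7.92, 9.39, 9.12 and 9.06 in tumors and 7.65, 9.67, 6.09 and 9.004 in normals, with a difference of 0.77 ± 0.76 (adjusted p = 0.451). Its highest value was that of normal 2. Itgax, found on dendritic cells and macrophages, was at 10.37, 10.82, 9.79 and 10.66 in tumors and 9.62, 10.32, 8.28 and 9.81 in normals, with a difference of 0.91 ± 0.45 (adjusted p = 0.191).

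Itgb2l, a beta chain gene close in sequence to Itgb2 and known from neutrophils, was at 7.26, 6.99, 9.40 and 5.06 in tumors and 5.75, 4.20, 5.97 and 5.06 in normals. Tumor 4 and normals 2 and 4 were below the detection limit of 5.59, and the difference was 1.93 ± 0.87 (adjusted p = 0.168). Itgb7, the beta chain of the gut-homing receptors, was at 11.15, 10.59, 10.95 and 10.84 in tumors and 10.26, 10.59, 8.75 and 10.38 in normals. Every tumor lay above every normal for Itgb7, tumor 2 only just above normal 2, and its difference of 0.89 ± 0.40 had an adjusted p of 0.167. Itgae, which pairs with Itgb7 on T cells within the epithelium, was at 10.03, 9.61, 9.44 and 9.54 in tumors and 9.62, 9.52, 9.15 and 9.23 in normals (difference 0.27 ± 0.18, adjusted p = 0.282). Itga4, which binds Vcam1 and Madcam1, was at 7.76, 7.77, 6.59 and 7.77 in tumors and 8.32, 9.79, 5.23 and 9.35 in normals. It was the only leukocyte chain below 0, with a difference of -0.70 ± 0.95 (adjusted p = 0.582), and 3 of 4 normals lay above all tumors.

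The number of leukocyte chains called moved with single samples and with the treatment of probes. It was 0 without tumor 2, tumor 3, normal 1 or normal 4, and 4 with the mean over a gene's kept probes. Without normal 3, 3 of 8 were called: Itgb2, Itgal with a difference of 0.60 (adjusted p = 0.0374), and Itga4 with a difference of -1.68 (adjusted p = 0.0211). The median difference was then 0.49, and in that fit 51.5% of all genes were called and 31.7% were called higher. The probes of Itga4 did not agree either: its brightest probe gave -0.70, while the other 3 kept probes gave 0.64, 0.69 and 1.84, and the mean over its probes had a difference of 0.62 (adjusted p = 0.0421). Leukocyte markers also differed between the groups. The mean level of 5 pan-leukocyte markers ran from 12.26 to 12.47 in tumors, against 9.84 in normal 3 and 11.43 to 11.95 in the other normals. Of these markers 3 of 5 were called higher, where 7.00% of all genes were, and the median difference was 1.25. Called higher were also 5 of 5 neutrophil markers (median 5.25), 4 of 6 macrophage markers (median 1.48), 3 of 7 markers of T and NK cells (median 0.98) and 0 of 5 of B and plasma cells (median 0.47). Among the normals these lists did not all order the samples as the chains did. Normal 3 was the lowest normal for macrophage markers (10.33, against 10.58 to 11.29 in the others) and for B and plasma cell markers (9.62, against 11.15 to 11.43). It was the highest normal for neutrophil markers (10.87, against 7.04 to 9.13) and for T and NK cell markers (9.34, against 8.26 to 9.11). Their part in the levels of the leukocyte integrins was not tested.

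**Figure D3:**
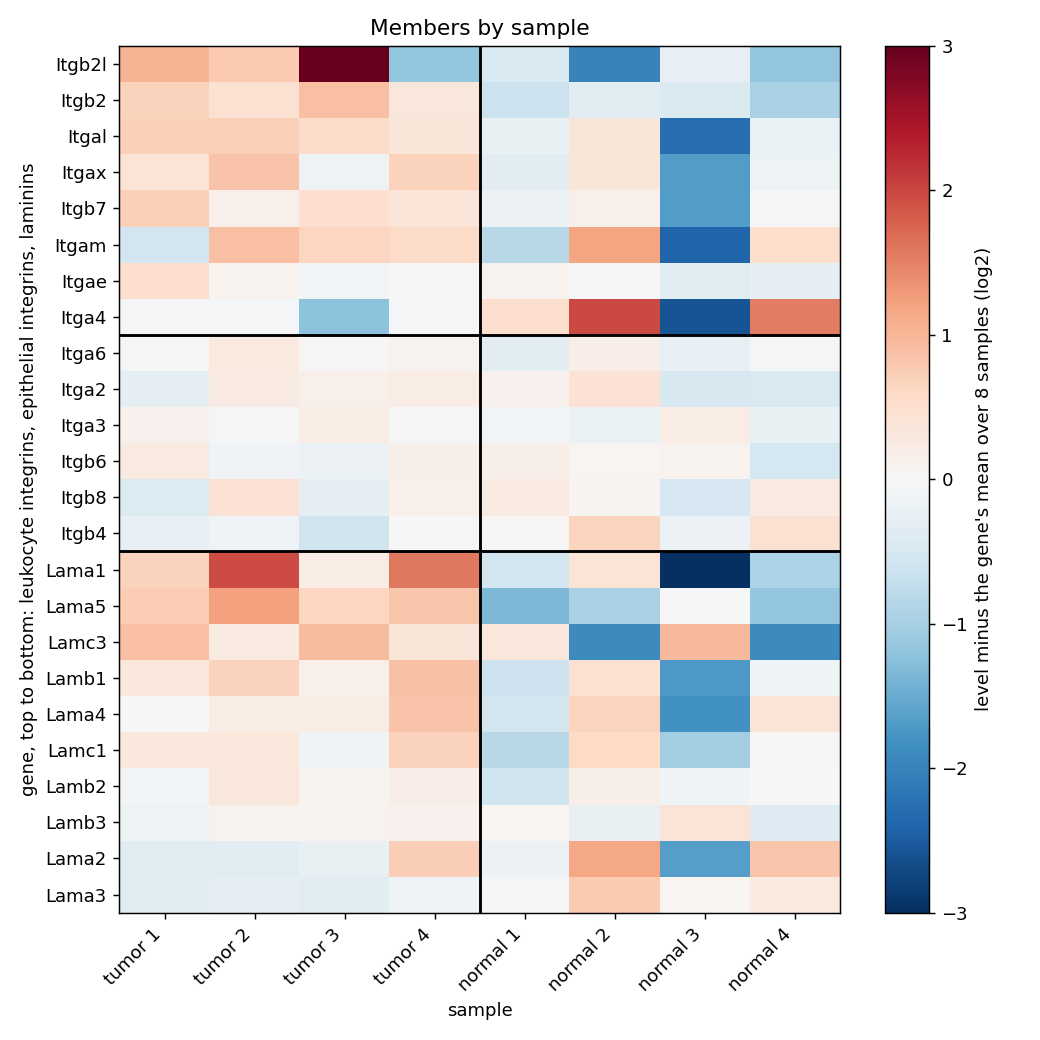
Log2 level of each leukocyte and epithelial integrin and of 10 laminin chains in each sample, as the difference from the gene's mean over the 8 samples (colour scale in log2, cut at -3 and 3), tumors left and normals right. Black lines part the classes: on the brightest probe, 6 of the 8 leukocyte chains have their lowest value of all samples in normal 3. Their other kept probes, not drawn, go both ways. Normal 3 is lowest again on those of Itgam (4.86) and Itgae (6.99), and highest of all samples on that of Itgax (10.22). Itga4 has other probes of both kinds (3.21 and 8.91).

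Of the 6 epithelial integrins, 0 were called higher or lower (limma), where 14.5% of all genes were called. At an unadjusted p under 0.05 (limma) 0 of 6 passed, where 7011 of all 21637 genes did. The median difference of the epithelial chains was 0.12, against 0.90 for the leukocyte chains and 0.15 for all genes. The difference between the classes was not tested. Their mean level was 11.32, 11.54, 11.31 and 11.52 in tumors, against 11.45, 11.63, 11.24 and 11.33 in normals, and these ranges overlap.

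Itga6, the alpha chain of the hemidesmosome receptor, was at 14.86, 15.18, 14.92 and 14.999 in tumors and 14.57, 15.10, 14.65 and 14.87 in normals, a difference of 0.19 ± 0.16 (SE, adjusted p = 0.371). The other kept probes of Itga6 gave -0.08 and -0.72. Its partner Itgb4 was at 14.94, 15.08, 14.60 and 15.21 in tumors and 15.23, 15.86, 15.01 and 15.65 in normals. Only normal 3 lay within the range of the tumors, and the difference was -0.48 ± 0.23 (adjusted p = 0.188). All 3 kept probes of Itgb4 were below 0, at -0.44, -0.48 and -0.91, and the dimmest of them was called lower among probes (adjusted p = 0.0237, where 13.4% of probes were called). Without normal 3 Itgb4 was called lower, with a difference of -0.62 (adjusted p = 0.0476). Itga3, which binds laminin with Itgb1, was at 11.61, 11.42, 11.68 and 11.43 in tumors and 11.38, 11.28, 11.69 and 11.26 in normals (difference 0.13 ± 0.15, adjusted p = 0.494). Its other kept probes gave -0.49 and 0.69.

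Itga2, a collagen receptor chain, was at 7.52, 8.04, 7.96 and 8.03 in tumors and 7.94, 8.24, 7.32 and 7.33 in normals (difference 0.18 ± 0.25, adjusted p = 0.595). Itgb6, whose receptor with Itgav activates TGF-beta on epithelia, was at 13.14, 12.77, 12.70 and 13.04 in tumors and 13.05, 12.92, 12.97 and 12.33 in normals (difference 0.10 ± 0.20, adjusted p = 0.727). Its other kept probes gave -0.43 and -0.59. Itgb8, a further partner of Itgav, was at 5.87, 6.72, 6.01 and 6.43 in tumors and 6.54, 6.35, 5.77 and 6.54 in normals (difference -0.04 ± 0.26, adjusted p = 0.904), close to the detection limit in both groups. Among 7 general markers of gut epithelium 2 were called lower in the tumors (Cdh17 and Krt20) and 0 higher, where 7.54% of all genes were called lower. Their median difference was -0.46.

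The remaining integrins were mostly not called. Itgb1, the common beta chain, was at 13.64, 13.83, 13.80 and 13.83 in tumors and 13.25, 13.60, 13.31 and 13.37 in normals. Its groups did not overlap, and the difference of 0.39 ± 0.13 (SE) had an adjusted p of 0.0826. Itga8, an alpha chain of mesenchymal cells, was at 9.27, 8.42, 7.96 and 9.39 in tumors and 9.87, 10.98, 9.12 and 10.98 in normals, with a difference of -1.48 ± 0.51 (adjusted p = 0.0936). Without normal 3 that difference was -1.85 (adjusted p = 0.0175), and 1 of its 3 probes lay on the other side of 0, at 0.71. Itgb3, the partner of both Itga2b on platelets and Itgav on other cells, was at 13.12, 13.84, 14.71 and 14.20 in tumors and 13.30, 11.23, 14.56 and 11.36 in normals. Normals 1 and 3 lay within the range of the tumors, and the difference was 1.36 ± 0.78 (adjusted p = 0.223), or 2.01 (adjusted p = 0.0282) without normal 3. Differences of Itga2b (-0.07), Itga1 (-0.14), Itga5 (0.15), Itga9 (0.31), Itga11 (0.07) and Itgb5 (0.23) had adjusted p values of at least 0.457. Itgbl1 (-0.65) and Eif6 (0.17) had adjusted p values of 0.556 and 0.379.

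Laminin chains gave 1 call in 11 (Lama5), which is 9.09% against 14.5% of all genes. Their median difference was 0.62, against 0.15 for all genes. Above 0 were 9 of 11 chains and 12529 of all 21637 genes. Lama3 and Lamb3, chains of the laminins of epithelial basement membranes, were not called. Lama3 was at 11.37, 11.45, 11.40 and 11.61 in tumors and 11.68, 12.51, 11.80 and 12.03 in normals, with the tumors below all normals, and its difference was -0.55 ± 0.20 (SE, adjusted p = 0.102). Its second probe gave 0.89, and without normal 3 the difference of the brightest probe was -0.62 (adjusted p = 0.0434). Lamb3 was at 13.48, 13.73, 13.73 and 13.75 in tumors and 13.68, 13.41, 14.02 and 13.24 in normals (difference 0.09 ± 0.19, adjusted p = 0.740).

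Lama1, the alpha chain of embryonic basement membranes, had a difference of 2.23 ± 0.80 (SE), the largest of any member over all 8 samples, and was not called (adjusted p = 0.100). It was at 7.84, 9.12, 7.38 and 8.73 in tumors and 6.59, 7.55, 3.78 and 6.20 in normals, where normal 3 was below the detection limit. Tumor 3 and every normal lay below the stricter detection limit of 7.70, at which Lama1 was not among the 10 laminin chains tested. With the replicate number as a block it was called higher (adjusted p = 0.0497), in a fit that called 3 members, all higher, with 8.69% of all genes called and 3.61% called higher, and without normal 3 the difference was 1.49 (adjusted p = 0.0431), smaller than those of Itgb2l (2.17), Lama5 (2.03), Itgb3 (2.01) and Lamc3 (1.78). Lamc3 was at 8.73, 8.11, 8.79 and 8.20 in tumors and 8.17, 5.93, 8.82 and 5.92 in normals, with a difference of 1.25 ± 0.69 (adjusted p = 0.214), or 1.78 (adjusted p = 0.0358) without normal 3. Lamb1 and Lamc1, the common beta and gamma chains that join Lama5 in gut laminin, had differences of 1.01 ± 0.45 (adjusted p = 0.161) and 0.62 ± 0.38 (adjusted p = 0.250). Lama4 of vessels (0.65, adjusted p = 0.361), Lama2 of muscle (-0.08, adjusted p = 0.931) and Lamb2 (0.27, adjusted p = 0.311) were not called either. Without normal 3, 5 of 11 laminin chains (45.5%) were called, 4 higher and 1 lower, where 51.5% of all genes were called and 31.7% were called higher.

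**Figure D4:**
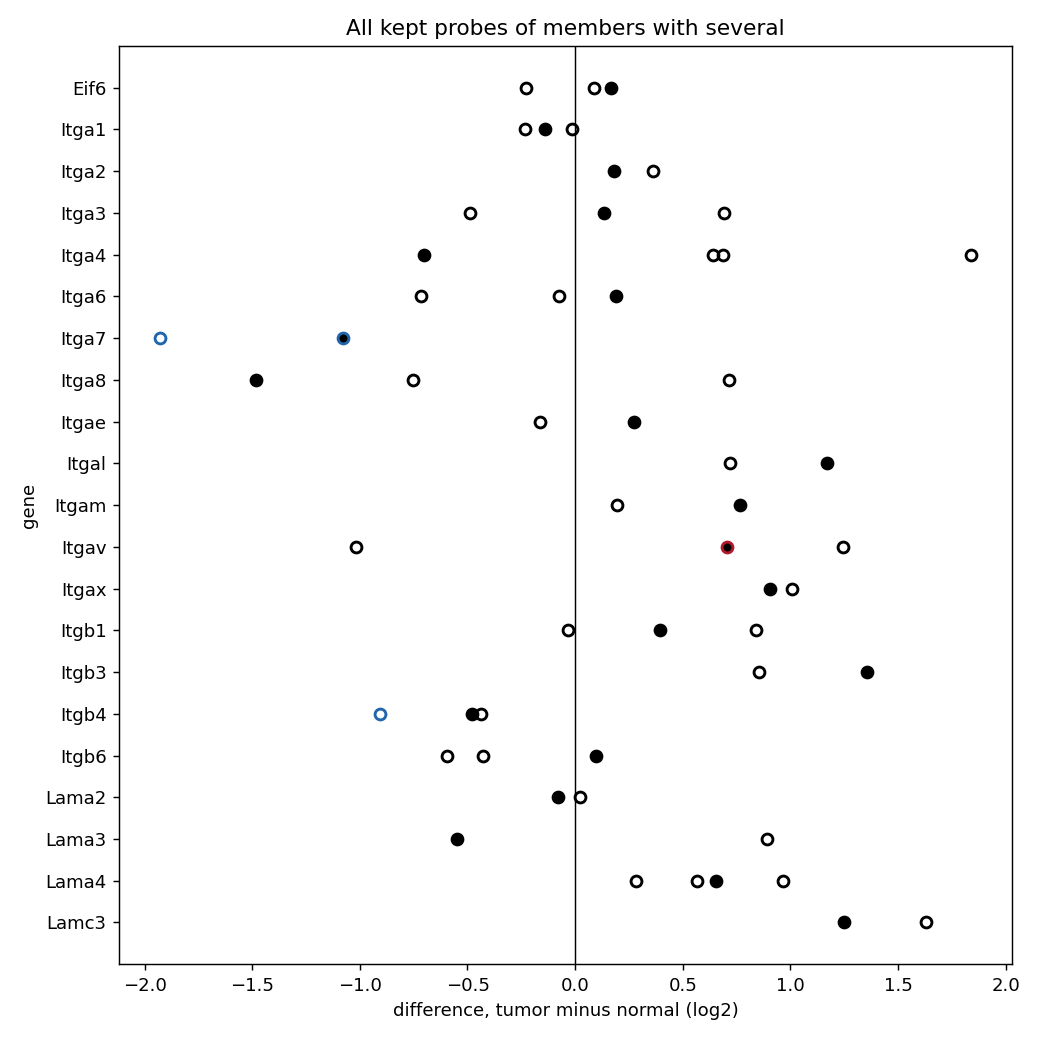
Difference in log2 level, tumor minus normal, of every kept probe of the 21 member genes drawn that have over 1 kept probe. Filled points are the brightest probe, which stands for the gene, a red or blue rim marks probes called higher or lower, and in 11 of the 21 genes the probes lie on both sides of 0.

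Several probes of a gene often gave differences of unlike sign. Of 21 member genes with over 1 kept probe, 11 had probes on both sides of 0, and 0 had probes called in opposite directions. Over the 71 kept probes of 37 members 3 were called higher and 3 lower, against 13.4% of all kept probes called. Itgb2, Itgb7, Itgb2l and Lama5 had 1 kept probe each, so that no second probe bears on them. The pairs of Itgal, Itgax and Lamc3 had the same sign (0.72 and 1.17, 0.91 and 1.01, 1.25 and 1.63). The samples were not always ordered alike. Normal 3 was lowest of all samples on the brightest Itgax probe (8.28) and highest of all on the other (10.22). For Itgal it was lowest on the brightest probe (7.07) and the highest normal on the other (8.92).

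The partners of integrins were listed by role. Among 15 integrin ligands 6 were called higher and 0 lower, where 7.00% of all genes were called higher and 7.54% lower. Their median difference was 0.98, against 0.15 for all genes. Icam1, the ligand of Itgal with Itgb2, was at 13.16, 13.31, 13.63 and 12.43 in tumors and 10.81, 11.22, 11.54 and 10.60 in normals, a difference of 2.09 ± 0.31 (SE, adjusted p = 0.0149). Ccn1, a matrix protein bound by integrins that hold Itgav, was at 11.89, 12.02, 12.17 and 12.09 in tumors and 10.77, 10.38, 10.91 and 9.97 in normals, a difference of 1.53 ± 0.22 (adjusted p = 0.0149). Spp1, osteopontin, was at 14.05, 14.05, 13.37 and 13.76 in tumors and 7.85, 8.40, 11.81 and 7.15 in normals, a difference of 5.01 ± 0.93 (adjusted p = 0.0204). All 3 had every tumor above every normal, and for Icam1 and Spp1 normal 3 was the highest normal, as it was for Ccn1. The other 3 ligands called higher, chosen after their values were seen, were Thbs1 (1.22, adjusted p = 0.0215), Mfge8 (0.98, adjusted p = 0.0235) and Vcam1 (1.69, adjusted p = 0.0448). Leaving out a single sample ended the call of Ccn1 without tumor 3 (adjusted p = 0.0594), of Icam1 without tumor 2, tumor 3 or normal 4 (0.0505 to 0.0589), of Spp1 without any sample but tumor 4 or normal 3 (0.0563 to 0.0678), and of Thbs1 without any but tumor 4, normal 2 or normal 3 (0.0581 to 0.0677). Mfge8 kept its call only without normal 2 or normal 3 (otherwise 0.0510 to 0.0740) and Vcam1 only without normal 3 (otherwise 0.0627 to 0.124). The mean over probes ended the calls of Thbs1 (adjusted p = 0.0858) and Vcam1 (0.139), and with the replicate number as a block Vcam1 was at 0.0784. With the scanner files as filed Ccn1 had a difference of -0.035 and Mfge8 of -0.040. Macrophages and vessel cells make several of these ligands. Of the macrophage markers 4 of 6 were called higher in the tumors and 6 of 6 lay above 0. Of the endothelium markers 1 of 5 (Cdh5) was called higher and 4 of 5 lay above 0. The part of these cells in the ligands' levels was not tested.

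Of 12 other basement membrane genes tested, 1 was called higher and 1 lower, with a median difference of 0.96. Of all genes 7.00% were called higher and 7.54% lower, and these shares also stand beside the counts below. Col18a1, a basement membrane collagen, was at 13.90, 14.29, 13.99 and 14.47 in tumors and 11.88, 12.65, 11.99 and 11.93 in normals, a difference of 2.05 ± 0.22 (SE, adjusted p = 0.0121). Dag1, dystroglycan, a laminin receptor that is no integrin, was at 12.61, 12.90, 12.80 and 13.06 in tumors and 13.57, 13.83, 13.16 and 13.70 in normals, a difference of -0.72 ± 0.18 (adjusted p = 0.0413). Of 4 hemidesmosome partners, 1 was called lower and 0 higher, with a median of -0.12. It was Dst, the gene of the plakin BP230 and of longer forms, at 9.04, 9.11, 8.80 and 10.13 in tumors and 11.02, 11.41, 10.12 and 11.38 in normals, with a difference of -1.71 ± 0.39 (adjusted p = 0.0303) and tumor 4 just above normal 3. Of 25 adaptors and kinases at the inner face of integrins 0 were called higher and 1 lower, with a median of -0.09. That gene, Tns4, a tensin of epithelial adhesions, was at 8.58, 8.79, 8.53 and 8.78 in tumors and 9.90, 10.62, 9.27 and 10.92 in normals, a difference of -1.502 ± 0.35 (adjusted p = 0.0323). Calls were lost for Col18a1 without tumor 3 (adjusted p = 0.0548), for Dst without any single sample but tumor 4 or normal 3 (0.0780 to 0.0923), and for Dag1 (0.0592 to 0.114) and Tns4 (0.0636 to 0.0953) without any but normal 3. With the replicate number as a block Dag1 was at an adjusted p of 0.0597.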

How the data were processed

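RNA of 4 colon tumors and 4 normal colons was hybridised to 1-colour arrays, 2 slides in all. The deposited scanner files hold intensity values, background-subtracted by Agilent Feature Extraction 9.5.1.1 per the file headers (the submitters' processing notes name 10.1.1.1), for 41174 probes with mm8 positions. The deposited table of the authors holds log2 values, found from the values to be quantile-normalised (median 8.51 in every column). It was the main source because scanner files and columns disagree on samples: tumor 2, normal 1 and normal 2 matched the files of normal 4, normal 2 and normal 3. Scanner signals well above background made up 55.6% to 82.8% of probes, and 8 arrays limit the precision. The labels call the samples independent tissue samples, so p-values measure the spread between them.

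Genes were named through RefSeq (GRCm38.p6, names only): 24375 probes by accession, 6301 by symbol, 2426 by synonym, 8072 by the file's name. The detection limit came from the upper end of the probes that the scanner software did not flag as well above background, taken as the median of the 4 traced columns. Of all probes 31870 passed. limma 3.58.1 in R 4.3.3 (lmFit, eBayes, 2-sided) compared the groups, with Benjamini-Hochberg adjustment over 21637 genes and a threshold of 0.05, and was tested on simulated data. All member genes are named but 1, which is counted and not reported here, with values per sample for called members, leukocyte and epithelial integrins, Lama3 and Lamb3, and of each list of partners the 3 called genes of smallest adjusted p. The members and lists were chosen with earlier results of these data known. The replicate numbers were tried as a pairing, which the sample titles do not state. Deviations of same-numbered samples correlated at 0.238, 0.356, 0.534 and 0.362 (the other 12 tumor and normal pairs at -0.507 to 0.379). These ranges overlap, so the correlations do not settle whether the numbers mark pairs. The fit without the block is given, and the blocked value beside each call that it changed. Alternatives were scanner values, normexp (offset 50), 2 filters, the mean over probes, centring, a trended robust fit, the block, traced columns and leaving out each sample. A further probe of Itga9, listed under another name, was not used.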

Additional observations from a re-analysis of the deposited data

Results flagged for a closer look

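Within each group of 4 samples, a sample was singled out when its gap to the nearest other sample was a larger part of the group's range than Dixon's critical value. Over 74 groups of member values this happened 6 times, where chance gives about 5%. Tumor 1 was low for Itga2 (7.52, other tumors 7.96 to 8.04), for Lamb3 (13.48, others 13.73 to 13.75) and for Itga2b (5.73, others 7.06 to 7.21). Tumor 3 was low for Itga4, at 6.59 against 7.76 to 7.77 in the other tumors. Tumor 4 was high for Itga5 (9.36, others 8.97 to 8.999) and for Lama2 (9.27, others 8.16 to 8.32). None of these 6 genes was called in the fit of all 8 samples.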

How the results depend on the processing

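The count of called members (4) was 4 without a filter on dim probes, with the stricter limit and after centring, 5 with the trended robust fit, 6 with the mean over probes and 3 with the replicate number as a block. It was 0 with the scanner values as filed (3 members at an unadjusted p under 0.05), with normexp (2), in the 4 traced columns (6) and in these with the slide as a block (6), all by limma, and 0 to 13 when a sample was left out. With 2 tumors and 2 normals the traced columns hold few samples, and the cause of the other losses was not tested. The count of all genes (3147) was 1881 with the block, 0 under those 4 settings (411, 509, 4817 and 7359 unadjusted) and 21 to 11136 without a sample. Centring gave 1073 higher and 2016 lower, against 1515 and 1632 without, and moved the median of all genes to 0.02. Leukocyte calls (1) were 4 with the mean over probes, 0 under those 4 settings and 0 to 3 without a sample. Epithelial calls (0) were 0 to 1 without a sample, the 1 being Itgb4 without normal 3. Laminin calls (1) were 2 with the block, 0 under those 4 settings and 0 to 5 without a sample. Among genes called in the fit of all samples or in the alternative, signs turned for Itgav with the scanner values (-0.012), for Itga4 with the mean over probes (0.62), for Ccn1 with the scanner values (-0.035) and normexp (-0.030), and for Mfge8 with both (-0.040 and -0.096). Counting uncalled members too, 12 of 38 turned sign with the scanner values, 9 with normexp, 5 in the traced columns, 4 with the mean over probes, 3 after centring and 1 to 5 without a sample. The block changed no call among members other than those of Itgav, Itga7 and Lama1; Dag1 (adjusted p = 0.0597) and Vcam1 (0.0784) also lost theirs. The median difference of the epithelial chains was -0.02 after centring, -0.03 with normexp, -0.12 with the mean over probes and -0.09 in the traced columns, and that of the laminins -0.13 with the scanner values and -0.16 with normexp. That of the leukocyte chains stayed above 0 in every setting.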
